A study of Drosophila melanogaster with 8 samples.

Results

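CDK9 promoter regions on the X chromosome of *Drosophila melanogaster* Kc167 cells, a female embryonic hemocyte line, were described. Overlapping peaks of the 4 CDK9 lists (by at least 1 bp) were joined, which gave 5531 regions, and a region was a member if it lay on X and overlapped the 1500 bp on either side of an annotated start (dm6, transposable elements left out). This gave 991 X promoter regions of 4228 promoter regions in all, and the 3237 promoter regions on the autosomes served for comparison. The lists came from chromatin immunoprecipitation followed by sequencing (ChIP-seq) with an antibody to CDK9. The tested cells, siAGO2, carried an *Ago2* knockdown by transfected siRNA or dsRNA, and the mock cells went through the same transfection without RNA. Both groups are cultures of the same cell line taken 3 days after transfection, with 2 CDK9 libraries each. Each library has an input, which enters here only through the local background of its peaks. The labels do not say whether the libraries of a group came from separate cultures, so tests across them measure the spread between these libraries, and the extent of the knockdown cannot be read from peak lists.

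CDK9 is the catalytic subunit of P-TEFb, which phosphorylates paused RNA polymerase II and its pausing factors and so lets the polymerase move into the gene. AGO2 is the Argonaute protein of the fly siRNA pathway and is also found at promoters. In fly males the MSL complex, with the RNAs roX1 and roX2, raises transcription of the single X, and in females the Sxl protein blocks assembly of that complex. GA repeats are common in fly promoters and are bound by GAGA factor and by CLAMP, which also marks the X entry sites of MSL.

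The reference sequence at the summits of 11 X regions is shown for the classes that the later results separate. Each line gives 91 bases of the plus strand of dm6 around the summit, 5′ to 3′, with each GAGAG or CTCTC in capitals. The first 8 belong to the 10 highest ranked regions that were called in all 4 libraries. The next 2 had peaks in mock cells alone, which means in each mock library and no siAGO2 library, and the last in siAGO2 cells alone. They are all windows of the named regions of these classes that held no annotated UTR.
RhoGAP18B, chrX:19153664-19153754: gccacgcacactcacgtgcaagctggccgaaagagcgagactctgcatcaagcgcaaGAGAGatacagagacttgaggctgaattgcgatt
Moe, chrX:8891809-8891899: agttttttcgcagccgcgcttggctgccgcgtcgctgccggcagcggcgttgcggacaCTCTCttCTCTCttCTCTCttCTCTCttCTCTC
disco, chrX:16217122-16217212: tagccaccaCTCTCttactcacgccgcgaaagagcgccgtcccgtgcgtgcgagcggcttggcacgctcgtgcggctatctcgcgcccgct
sd, chrX:15811850-15811940: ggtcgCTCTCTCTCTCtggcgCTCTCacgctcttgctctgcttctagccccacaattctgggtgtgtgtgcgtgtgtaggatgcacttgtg
brk, chrX:7307722-7307812: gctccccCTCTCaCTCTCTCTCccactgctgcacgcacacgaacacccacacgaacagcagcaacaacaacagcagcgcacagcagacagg
CG15211, chrX:10772425-10772515: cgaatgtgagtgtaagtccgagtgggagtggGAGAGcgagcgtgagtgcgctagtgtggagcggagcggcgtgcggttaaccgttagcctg
lncRNA:CR45609, chrX:18312706-18312796: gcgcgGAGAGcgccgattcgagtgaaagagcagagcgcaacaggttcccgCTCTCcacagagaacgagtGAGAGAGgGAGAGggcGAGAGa
CG2865, chrX:2293442-2293532: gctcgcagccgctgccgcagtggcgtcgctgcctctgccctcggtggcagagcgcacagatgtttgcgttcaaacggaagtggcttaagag
dx, chrX:6534506-6534596: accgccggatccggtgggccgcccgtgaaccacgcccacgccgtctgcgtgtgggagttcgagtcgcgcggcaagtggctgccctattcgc
CG7556, chrX:19179584-19179674: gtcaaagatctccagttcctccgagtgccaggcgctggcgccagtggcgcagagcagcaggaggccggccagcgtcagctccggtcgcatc
CG2186, chrX:10857969-10858059: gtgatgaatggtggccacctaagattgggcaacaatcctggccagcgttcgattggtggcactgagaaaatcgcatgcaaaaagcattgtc
The *Moe* and *sd* summits lie in introns of these genes, the *brk* summit in introns of overlapping genes, and those of *disco*, *CG15211*, *lncRNA:CR45609* and *CG2865* between genes. The *RhoGAP18B*, *dx* and *CG7556* summits lie in exons and the *CG2186* summit in an intron.

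The 4 lists held 1707 and 2295 peaks in siAGO2 cells, against 3103 and 3804 peaks in mock cells. Depth could be read only through the lowest local background, which also depends on the input and the peak-calling settings. It was 0.814 and 0.864 reads over a position in the siAGO2 libraries, against 2.29 and 1.21 reads in the mock libraries. Between groups it had the same order as list length, and within the mock libraries it did not. Of the hemocyte markers, the GATA factor gene *srp* and its partner *ush* had a promoter region in all 4 libraries, *Col4a1* and *vkg* in 2, *Pxn* in 1, and *Hml*, *NimC1*, *eater* and *crq* in 0. Of the neuronal markers, *elav* and *nSyb* had a region in 1 library and *Syt1*, *brp* and *para* in 0, and of the crystal cell genes *lz* had a region in all 4 libraries and *PPO1* and *PPO2* had none. A peak is not a measure of expression.

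The share of genes with a CDK9 promoter region was higher on X than on any other large arm, in each of the 4 libraries. The share of X genes with a region called in the library was 17.2% (95% Wilson interval 15.8 to 18.6) and 21.0% (19.6 to 22.6) in siAGO2 cells, against 23.7% (22.2 to 25.3) and 30.4% (28.7 to 32.1) in mock cells. On the autosomes it was 9.28% and 13.0% in siAGO2 cells, against 15.3% and 20.7% in mock cells. These intervals cover counting error only and treat genes as independent. Neighbouring genes can share a region, and 347 X regions gave 483 X genes in siAGO2 replicate 1, so the intervals are likely too narrow. The arm with the highest autosomal share was 3R in every library, with 11.03% and 15.1% in siAGO2 cells, against 17.9% and 23.4% in mock cells. The X interval lay above the interval of 3R in all 4 libraries, which is a description and not a test.

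**Figure D1:**
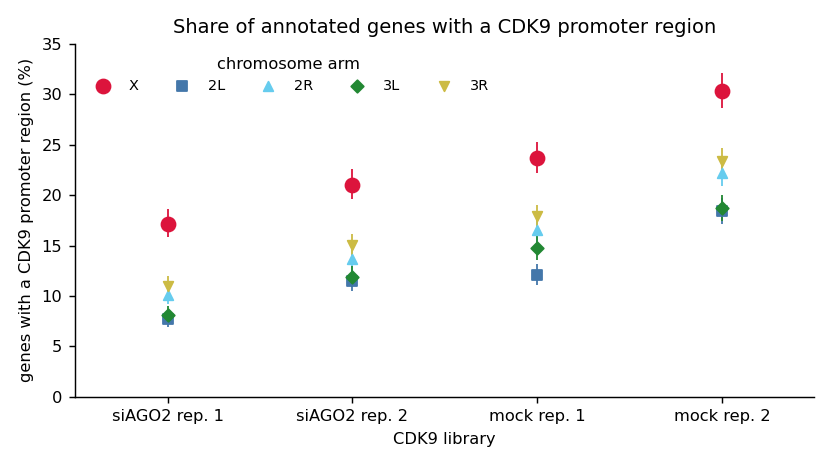
Percent of annotated genes with a CDK9 promoter region (vertical axis) in each of the 4 CDK9 libraries (horizontal axis), for X and the 4 large autosomal arms. Points are values and bars 95% Wilson intervals, which cover counting error only and treat genes as independent. X lies highest in every library, between 17.2% and 30.4%, and 3R is next.

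The X share exceeded the autosomal share by 7.89 and 8.00 percentage points in siAGO2 cells, against 8.39 and 9.66 points in mock cells. The mean was 8.48 ± 0.810 points (SD, n = 4), higher on X in 4 of 4 libraries (exact sign-flip permutation test over libraries, two-sided, p = 0.125, the smallest that 4 libraries allow, and 0.5 after adjustment over the 8 comparisons tested). The ratio of the shares was 1.85 and 1.61 in siAGO2 cells, against 1.55 and 1.47 in mock cells, so it was larger in both of the shorter lists. The difference in points was smaller in siAGO2 cells by 1.08 points, with p = 0.33 (exact permutation test, two-sided), the smallest that 2 libraries against 2 allow. Libraries repeat the measurement and not the chromosome, of which there is 1.

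Pooled over the libraries, 1076 of 2813 X genes (38.3%) had a promoter region, against 4008 of 15351 autosomal genes (26.1%). X holds 15.5% of these genes and 23.4% of the promoter regions. The X regions numbered 42.1 per Mb, against 29.3 per Mb on the autosomes, or 1.43 times as many. X had more annotated starts per gene, 1.39 against 1.28 on the autosomes, but windows around starts covered 7.05 Mb of X, and per Mb of such window there were 141 X regions against 92.5 autosomal ones. X also held 329 of the 1296 merged regions of X and the autosomes outside promoters, or 25.4%, and 7 merged regions on Y were left out.

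The X excess was present among coding, ncRNA and snoRNA genes and pseudogenes, and was not seen among the few tRNA genes. Of X coding genes, 42.1% had a region (924 of 2196), against 29.2% of autosomal coding genes. Among ncRNA genes the shares were 23.0% on X and 16.5% on the autosomes. Among snoRNA genes, many of which sit in introns of other genes, they were 74.2% on X (23 of 31 genes) and 33.2% on the autosomes. Counting only regions called in all 4 libraries, the snoRNA shares were 9.68% on X (3 genes) and 6.72% on the autosomes. A snoRNA start was the nearest start for only 4 X regions. Among pseudogenes 21.6% had a region on X (16 of 74) and 8.76% on the autosomes. None of the 24 X tRNA genes had a region, against 17 of 266 autosomal ones. Along X in steps of 5 Mb from the left end, the share of genes with a region was 37.5%, 42.7%, 33.96%, 42.04% and 29.3%, the last for the shorter segment that ends at the centromeric side. Every one of these X segments but the last lay above the 29.8% of 3R, the highest autosomal arm.

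The median height of the called X regions did not follow their number. The deposited fold enrichment is the ratio of reads at the summit to local background, each with 1 added, which lowers it most where the background is low. Its median was 5.24 and 5.13 on X in siAGO2 cells, against 3.86 and 4.74 on X in mock cells. On the autosomes it was 5.41 and 5.02 in siAGO2 cells, against 3.81 and 4.72 in mock cells. Folds are comparable only within a list, and within lists the log2 ratio of X over autosomes averaged 0.00 ± 0.03 (SD, n = 4 libraries), between −0.05 and 0.03 (exact sign-flip permutation test, two-sided, p = 0.875). Its sign turned without siAGO2 replicate 2 or mock replicate 1. With means over regions in place of medians the log2 ratio was 0.0334, higher on X in every library (exact sign-flip permutation test, p = 0.125). Only called regions enter these values, so regions under the peak threshold are not seen. The median X region held 15 and 14 reads at its summit in siAGO2 cells, against 23 and 17 in mock cells. The median local background was the same on X as on the autosomes in every library, 2.01 and 1.94 reads in siAGO2 cells, against 5.08 and 2.80 reads in mock cells. These exact ties did not hold under every alternative, where the mean log2 ratio lay between −0.0120 and 0.0216.

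**Figure D2:**
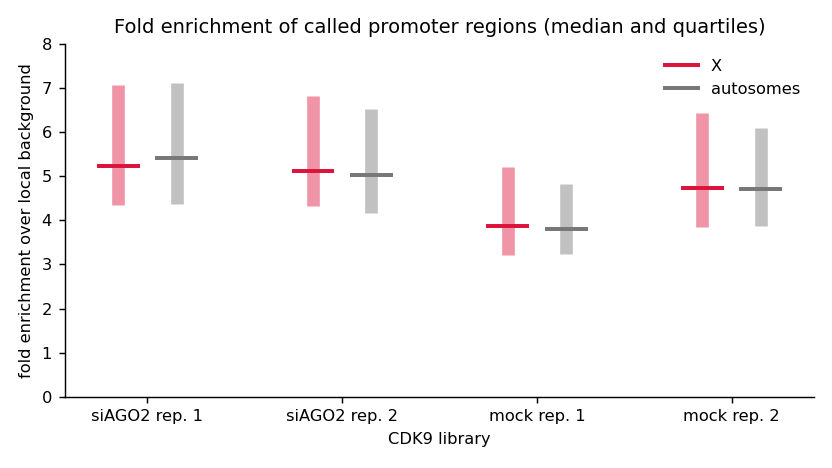
Fold enrichment over local background (vertical axis) of promoter regions called in each library (horizontal axis), on X and on the autosomes. Lines are medians and bars run from the lower to the upper quartile. Within each library the X and autosomal medians lie close together, 5.24 against 5.41 in siAGO2 replicate 1.

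In medians, rank and width did not differ in the same direction in all lists, and summit position did. The median percentile of −log10 q, the rank of a region within its list, was higher on X by 1.94 points on average, with −1.79 and 2.00 points in siAGO2 cells, against 5.14 and 2.41 points in mock cells (exact sign-flip permutation test, p = 0.25). Without mock replicate 1 the mean was 0.690 points. Taken as a mean over regions the difference was 1.76 points, and above the median −log10 q of each list 1.85 points. In both settings X ranked higher in every list (exact sign-flip permutation test, p = 0.125, the smallest possible). The direction across lists thus depended on the measure. The log2 ratio of median peak widths averaged 0.03 ± 0.11 (SD, n = 4; exact sign-flip permutation test, p = 0.625) and changed sign without mock replicate 1 (−0.01). X summits lay nearer to the closest start in 4 of 4 libraries, with medians of 100 and 146 bp in siAGO2 cells, against 196.5 and 155 bp in mock cells. The difference from the autosomal median averaged −19.6 ± 8.48 bp (SD, n = 4; exact sign-flip permutation test, p = 0.125, adjusted p = 0.5). X made up 24.7% and 25.3% of promoter regions in the top 25% of the siAGO2 lists, against 27.3% and 25.0% in the mock lists. In the bottom 25% it made up 21.9% and 20.2% in the siAGO2 lists, against 23.0% and 24.3% in the mock lists.

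Of the 991 X regions, 229 (23.1%) had a peak in every library. A further 94 had one in 3 libraries, 173 in 2 and 495 (49.9%) in 1. On the autosomes 19.9% had a peak in every library and 52.5% in 1. The X excess of 3.24 points in the first share was 1.59 points without siAGO2 replicate 1 and −0.822 points above the median −log10 q of each list. Most X regions of a single library came from the longer lists, with 28 and 79 called in a siAGO2 library alone, against 138 and 250 called in a mock library alone. In their own list these had median folds of 4.68 and 4.36 in siAGO2 cells, against 3.29 and 3.95 in mock cells. The 229 regions present in every library had median folds of 5.98 and 6.47 in siAGO2 cells, against 5.25 and 7.55 in mock cells.

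The 2 classes also differed in where the summit lay. The 229 regions present in every library had a median merged width of 607 bp and a median summit 19 bp upstream of the nearest start, with 52.0% of summits within 100 bp of it. Their summits fell in exons in 37.6%, in introns in 36.7% and between genes in 25.8%. Regions called in 1 library had a median merged width of 192 bp and a median summit 221 bp downstream of the nearest start, with 21.4% within 100 bp. Merged width grows with the number of peaks joined, and the single peaks differed less. Those of the 229 regions had median widths of 322 and 378 bp in siAGO2 cells, against 371 and 525 bp in mock cells, and those of regions called once 184.5 and 188 bp in siAGO2 cells, against 189.5 and 196.5 bp in mock cells. Of the summits of regions called once 76.0% lay in exons, and of the 138 regions of mock replicate 1 alone 123 did (89.1%). For the 229 regions called in all 4 libraries, the lowest and highest of the 4 summit positions lay a median of 89 bp apart, and within 50 bp for 62 regions. Over all 991 regions, 44.2% had starts on both strands within reach and 931 had a coding gene at the nearest start.

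The nearest starts belonged to 748 genes, 572 of them with 1 X region and 130 with 2. *Tlk*, the gene of the Tousled-like kinase that acts in chromatin assembly, had the most, 9 regions between 3720346 and 3781302 on X, 5 of them called in all 4 libraries. The highest of these 5 had folds of 4.98 and 11.5 in siAGO2 cells, against 13.8 and 15.1 in mock cells. *Hers*, *Pfrx*, *dnc* and *Mur2B* had 5 regions each. For *Mur2B* 0 of the 5 were called in all 4 libraries, and for *Hers* 3 were.

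The 10 X regions with the highest mean score of rank over the 4 lists are given by gene. Folds of different lists are not on a common scale, so the values of the 4 libraries are set side by side as a description. At *RhoGAP18B* (19152977 to 19154834), which encodes a GTPase-activating protein, fold enrichment was 18.1 and 26.9 in siAGO2 cells, against 11.7 and 26.2 in mock cells. Its summit held 121 and 134 reads in siAGO2 cells, against 145 and 167 reads in mock cells, and at 1858 bp it was the widest X region. At *Moe* (8891392 to 8892210), which encodes Moesin, the link between actin and the cell membrane, fold enrichment was 34.3 and 25.7 in siAGO2 cells, against 14.2 and 30.1 in mock cells. The printed fold was lowest in mock replicate 1, the library with the highest local background, at both genes, and the groups overlapped.

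At *Snx27*, a sorting nexin gene, fold enrichment was 22.6 and 18.2 in siAGO2 cells, against 11.9 and 21.4 in mock cells. At *disco*, which encodes a zinc finger transcription factor, it was 18.5 and 26.9 in siAGO2 cells, against 12.4 and 29.3 in mock cells. These groups overlapped as well. At *sd*, the gene of the TEAD factor that acts with Yorkie in the Hippo pathway, it was 15.7 and 22.0 in siAGO2 cells, against 12.4 and 18.0 in mock cells. At *brk*, the gene of a repressor of Dpp target genes, it was 13.3 and 20.4 in siAGO2 cells, against 9.05 and 14.7 in mock cells. The groups overlapped at both.

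The other 4 of the 10 were *CG15211*, *lncRNA:CR45609*, *Hex-A* and *CG2865*. *Hex-A*, which encodes a hexokinase, was the only 1 of the 10 with a lower fold in siAGO2 replicate 1 than in mock replicate 1, with 9.30 and 13.6 in siAGO2 cells, against 12.6 and 20.9 in mock cells. Its groups overlapped too.

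**Figure D3:**
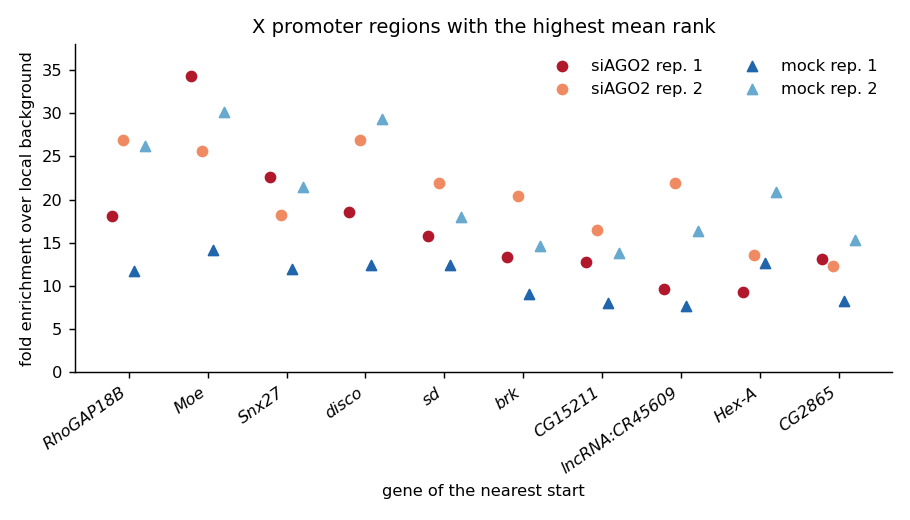
Fold enrichment over local background (vertical axis) in each CDK9 library of the 10 X promoter regions with the highest mean rank score (horizontal axis, by gene of the nearest start). Circles are siAGO2 and triangles mock libraries. The siAGO2 and mock points overlap, and mock replicate 1 is lowest at all but *Hex-A*.

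GA repeats were more frequent at X regions called in every library than at those called once. The sequence GAGAGAGA, on either strand and within 150 bp of the summit, was present in 21.8% of the X regions called in all 4 libraries (50 of 229) and in 4.65% of those called in 1 (23 of 495). On the autosomes the shares were 19.1% and 4.59%. Over all X regions it was 9.89%, against 8.65% of autosomal regions, and between 7.79% and 9.60% on single arms. Windows of the same length around every annotated start held it in 4.02% on X and in 3.02% on the autosomes. The shorter GAGAG, which is contained in the longer repeat, went the other way, with 45.01% of X regions against 48.0% of autosomal regions. Of the summits printed above, *Moe*, *sd*, *brk* and *CG2865* had the longer repeat within 150 bp, the other 4 of the highest ranked had GAGAG alone, and *dx*, *CG7556* and *CG2186* had neither.

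The CA repeat CACACACA was present in 15.4% of X regions, against 11.96% of autosomal regions and between 11.2% and 12.7% on single arms. It was also more common around X starts, 8.80% against 5.83% on the autosomes. At X regions called in all 4 libraries it reached 24.02%, against 18.7% on the autosomes. The run AAAAAAAA was present in 11.3% of X regions, against 6.49% of autosomal regions, and around 24.6% of X starts, against 14.3% of autosomal starts. TATAAA, the TATA box, was present in 12.1% of X regions, against 11.8% of autosomal regions, and around 31.3% of X starts, against 37.7% of autosomal starts. TATCGATA, the DRE motif, was present in 5.95% of X regions, against 4.11% of autosomal regions, and around 8.68% of X starts, against 5.53% of autosomal starts. Median GC content of the windows was 53.5% for X regions and 53.8% for autosomal regions, against 42.5% and 41.5% for all starts. These are 6 of the 14 motifs counted, each on both strands, and a match is not a bound site.

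**Figure D4:**
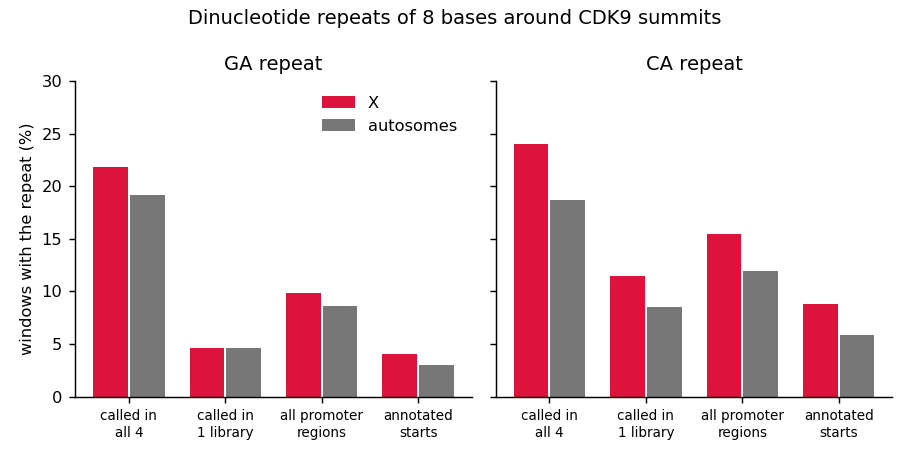
Percent of 301 bp windows (vertical axis) that hold the GA repeat (left) or the CA repeat (right), each of 8 bases on either strand, on X and on the autosomes. Groups of bars are promoter regions called in all 4 libraries, in 1 library, all promoter regions, and annotated starts. The GA repeat is in 21.8% of X regions called in all 4 libraries and in 4.65% of those called in 1.

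X genes were read by function from 5 lists of X genes, and set beside all coding genes of X, of which 12.7% had a region in all 4 libraries, 29.4% in 1 to 3 and 57.9% in 0. For polymerase II transcription, 5 of 12 genes had a region in all 4 libraries, 1 in 1 library and 6 in 0. The region at the start of *fs(1)h*, which encodes the fly BET bromodomain protein, also lay within reach of the integrin gene *mys* and had folds of 15.2 and 15.3 in siAGO2 cells, against 9.10 and 15.7 in mock cells. At *Trf2*, a TBP-related factor gene, folds were 7.25 and 15.7 in siAGO2 cells, against 9.04 and 10.4 in mock cells. At *Top1*, the topoisomerase I gene, they were 16.0 and 11.4 in siAGO2 cells, against 7.67 and 12.2 in mock cells. The other two were *e(y)3*, which encodes a chromatin remodelling cofactor, and *nej*, the fly CBP gene. *Polr2A*, *Spt6*, *TH1* (NELF-D), *nonA*, *Taf9* and *Usf* had none, so the genes of the largest polymerase subunit and of a pausing factor subunit were without a called region.

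Of the 8 genes for dosage compensation and sex determination, 0 had a region in all 4 libraries. *snf*, a splicing factor gene, had a region in both siAGO2 libraries (folds 4.30 and 4.93) that it shares with *Cdk7*. *mof*, the gene of the MSL acetyltransferase, had a region in siAGO2 replicate 2 (fold 5.29) and in mock replicate 1 (2.45). *run* and *roX2* had regions in mock replicate 1 alone (highest folds 3.75 and 3.12), 2 regions at *run* and 1 at *roX2*, which *roX2* shares with *e(y)2*. The summit of that region lay 1524 bp upstream of the *roX2* start, so only its edge was within reach. *roX1*, *Sxl*, *sisA* and *sc* had none.

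Of 22 signalling genes, 11 had a region in all 4 libraries, 9 in 1 to 3, and only *dsh* and *flw* had none. The highest were *RhoGAP18B*, *sd*, *mys* and *rut*, the adenylyl cyclase gene, which had folds of 12.4 and 11.5 in siAGO2 cells, against 7.90 and 9.23 in mock cells. Of 11 transcription factor genes, 6 had a region in all 4 libraries, 3 in 1 to 3, and *ovo* and *vnd* had none. *Mnt*, which encodes the partner of Max that opposes Myc, had folds of 17.6 and 10.6 in siAGO2 cells, against 9.07 and 16.2 in mock cells. *lz*, the gene of the RUNX factor of crystal cells, had folds of 10.8 and 10.7 in siAGO2 cells, against 6.62 and 12.1 in mock cells. *CrebB* and *Hr4* followed.

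Of 15 ribosomal protein genes, 3 had a region in all 4 libraries (*RpS5a*, *RpS19a* and *RpS28b*), 9 in 1 to 3, and *RpL17*, *RpL35* and *RpS15Aa* had none. *RpS5a* was the highest, with folds of 5.84 and 7.13 in siAGO2 cells, against 3.67 and 7.33 in mock cells. *RpS19a* shares its region with *Rok*, and *RpL7A*, whose region was called in both mock libraries alone, shares it with *dx*. The median over the genes of a list of their mean percentile, among those with a region, was 93.2 for polymerase II transcription, 85.7 for transcription factors, 71.1 for signalling, 52.1 for ribosomal proteins and 33.7 for dosage compensation.

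Fewer promoter regions were called after AGO2 knockdown, on X and on the autosomes. The X count was 347 and 445 in siAGO2 cells, against 514 and 733 in mock cells, and the groups did not overlap. The means were 396 ± 69.3 in siAGO2 cells and 623.5 ± 155 in mock cells (SD, n = 2 each), a ratio of 0.635 (exact permutation test, two-sided, p = 0.33, the smallest possible). Autosomal promoter regions numbered 1029 and 1388 in siAGO2 cells, against 1639 and 2372 in mock cells, and these groups did not overlap either. Between the groups, list length and lowest local background moved with the X count. When each list was limited to its 1707 highest peaks, the ratio was 1.04. Lists of equal length nearly fix this ratio beforehand, so depth and knockdown cannot be told apart by it. The cause of the lower count was not tested. X made up 25.2% and 24.3% of called promoter regions in siAGO2 cells, against 23.9% and 23.6% in mock cells, a difference of 1.01 points (exact permutation test, p = 0.33). It was 0.506 points without siAGO2 replicate 1, 1.48 points without siAGO2 replicate 2 and −0.370 points above the median −log10 q of each list.

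In 70 X regions (7.06%) each mock library and no siAGO2 library had a peak. On the autosomes the share was 6.33%, and over all merged regions it was 6.07%. The reverse pattern held for 3 X regions (0.303%), against 0.556% on the autosomes and 0.416% of all merged regions. The 2 counts stood in the same order as the list lengths. With every list cut to 1707 peaks, and so equally long, they were 14 for mock cells alone and 16 for siAGO2 cells alone. Lists of equal length draw these counts together beforehand, so the cut cannot tell list length and knockdown apart. The cause was not tested. With 1 library left out the rule asks for fewer peaks, and the regions of mock cells alone were 93 and 113 without siAGO2 replicate 1 and 2, and 323 and 209 without mock replicate 1 and 2. Those of siAGO2 cells alone were then 82 and 32, and 4 and 27.

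Of the regions called in mock cells alone, those highest in their lists lay at *Cyp1*, *CG3815*, *waw*, *dx* and *CG7556*. *Cyp1*, a cyclophilin gene, had folds of 3.52 and 7.22, and *dx*, the gene of the Notch regulator Deltex, had 3.90 and 5.30 in mock cells. All 5 summits lay in exons, and 0 of the 5 windows held GAGAG. The 3 regions of siAGO2 cells alone lay at *Cdk7*, *CG2186* and *Rip11*. *Cdk7*, which encodes the kinase of TFIIH, had folds of 4.30 and 4.93 in siAGO2 cells with 13 and 12 reads at the summit. *Rip11*, a Rab11 effector gene, had 3.48 and 3.27, with 11 and 12 reads.

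The order of X regions within the lists was compared between the groups with limma, on normal scores of the ranks of −log10 q, over the 1022 regions of the genome called in all 4 libraries. None of these passed an adjusted p of 0.05 (0% of all tested), and none of the 229 X regions did, with a smallest adjusted p of 0.671. At an unadjusted p under 0.05 there were 13 X regions (5.68%), against 6.46% of all regions. Of these 13, 5 were higher in siAGO2 cells and 8 lower. Over all 1022 regions, 34 of the 66 with such a p were higher, or 3.33% of all regions. The score was higher in siAGO2 cells for 122 of 229 X regions (53.3%), against 507 of all 1022 (49.6%). The median difference was 0.03 on X and −0.01 over all regions. With regions called in at least 3 libraries the X share was 46.4%, against 46.6% of all regions. Without mock replicate 2 it was 47.4%, against 49.3%. In the other alternatives the X share lay between 53.3% and 57.3%. Across the 229 X regions, the Spearman correlation of −log10 q was 0.64 between the siAGO2 libraries, 0.81 between the mock libraries and 0.69 to 0.74 across groups, as a description of regions that share libraries.

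The largest positive differences in score were at *Imp*, *CG3638* and *CG32813*. At the intronic *Imp* region (10814156 to 10814486), in the gene of an RNA-binding protein, folds were 5.59 and 6.10 in siAGO2 cells, against 3.27 and 3.15 in mock cells, with 13 and 17 reads against 20 and 13. Its score difference was 1.62 ± 0.51 (SE; limma, adjusted p = 0.671). The difference at *CG3638* was 1.32 ± 0.50 (SE; limma, adjusted p = 0.700). At *CG32813* it was 1.30 ± 0.88 (SE; limma, adjusted p = 0.906). The *CG32813* percentiles were 55.9 and 53.6 in siAGO2 cells, against 73.1 and 3.65 in mock cells, so the groups overlapped. The largest negative differences were at *lncRNA:CR44621*, *RhoGAP16F* and *bi*. At *lncRNA:CR44621* folds were 4.49 and 4.43 in siAGO2 cells, against 5.68 and 10.9 in mock cells, and the difference was −1.40 ± 0.38 (SE; limma, adjusted p = 0.671). At *bi*, which encodes the T-box factor Optomotor-blind, folds were 4.27 and 4.70 in siAGO2 cells, against 5.92 and 6.84 in mock cells. The difference at *bi* was −1.18 and at *RhoGAP16F* −1.29, both with an adjusted p of 0.671 in limma.

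**Figure D5:**
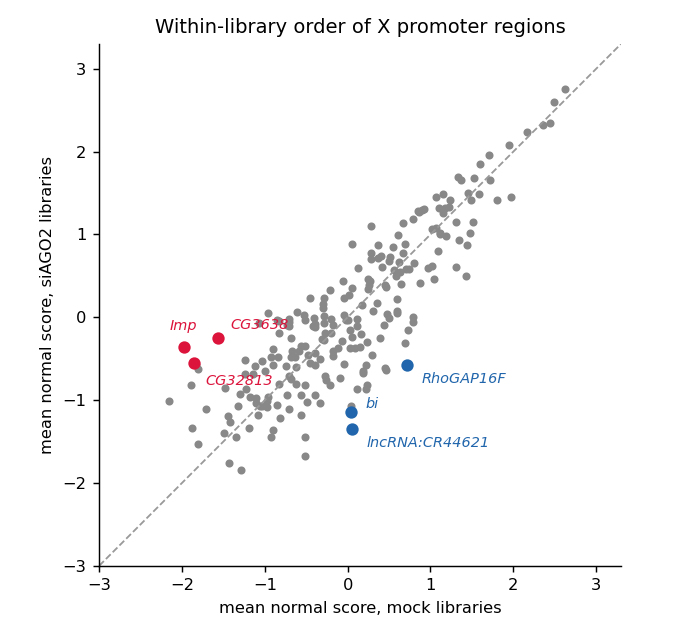
Mean normal score of the within-library rank in siAGO2 libraries (vertical axis) against mock libraries (horizontal axis) for the 229 X promoter regions called in all 4 libraries. Each point is a region, the dashed line marks equal scores, and the 3 largest differences in each direction are named. None of the 229 passed adjustment.

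Regions on either side of the limit of 1500 bp from a start had these values. Just inside it lay regions at *na* (1491 bp, mock replicate 1, fold 3.14), *IP3K2* (1492 bp, mock replicate 2, fold 4.97) and *CG3726* (1495 bp, all 4 libraries). The last had folds of 6.23 and 9.80 in siAGO2 cells, against 5.56 and 7.32 in mock cells. Just outside lay regions nearest to *Act5C* (1502 bp, mock replicate 2, fold 3.52), *CG11655* (1508 bp, mock replicate 1, fold 3.18) and *ph-p* (1514 bp, siAGO2 replicate 2, fold 4.71).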

How the data were processed

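Single-end reads were cut with cutadapt and mapped to dm6 with bowtie2 by the authors, who dropped multimapping and duplicate reads and called peaks for each library with MACS2 2.1.1.20160309 (settings for CDK9 not given in the sources used here), so a list's length depends on the depth of the library and its input. Of the deposited columns, the fold enrichment, the −log10 p and −log10 q values and the summit position were used, and the deposited score (10 times −log10 q) was not. Reads at the summit and the local background were recovered from fold and −log10 p, within 0.0005 for 100% of peaks. Starts came from Ensembl release 115 (18277 genes), sequence from the same assembly. Positions are dm6, counted from 1. A gene had a region if the region overlapped 1500 bp either side of one of its starts. X and autosomes were compared by exact sign-flip permutation over 4 libraries, siAGO2 and mock by exact permutation, and region order by limma 3.58.1 (R 4.3.3, Benjamini-Hochberg), tested on simulated data. Other steps used Python 3.11.15. Alternatives were other windows, merging, peak thresholds and list lengths, coding starts, arm means, each library left out and the replicate block. Named regions are the 10 highest in mean score, the 5 highest called in one group alone, the 3 largest score differences each way, and, from each gene list, the 4 highest and all without a region. Members, motifs and gene lists were chosen with earlier results of these data known. Pooled peak calls and read counts were not used here.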

Additional observations from a re-analysis of the deposited data

How the results depend on the processing

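The X excess in genes with a promoter region kept its direction under every alternative run, between 5.74 and 9.47 percentage points, also with each start counted once (8.93) and as a log2 ratio (0.69), which were chosen after seeing the data. With every list cut to its 1707 highest peaks, which nearly fixes the siAGO2 over mock ratio of X regions, that ratio was 1.04. The regions of mock cells alone were then 14 and of siAGO2 cells alone 16, counts that equal list lengths also draw together beforehand. Above the median −log10 q, these were 41 and 1, the X share differed by −0.370 points, regions called in all 4 libraries by −0.822 points and the log2 local background by −0.00646. With peaks up to 200 bp apart merged, siAGO2 cells alone had 5 regions. The log2 local background was 0.0216 against the mean of 4 arms, 0.0187 as a mean over regions and −0.0120 in regions called in all 4, where the percentile difference was −1.07 points and the log2 width −0.0177. GAGAG in place of the longer repeat gave −2.94 points. In each case the cause was not tested, and 2 of these alternatives make shorter lists.

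Leaving out 1 library at a time, the log2 fold ran from −0.00704 to 0.0174, the log2 local background from −0.00224 to 0 and the log2 width from −0.00738 to 0.0760. Regions of mock cells alone ran from 93 to 323 and of siAGO2 cells alone from 4 to 82. The unadjusted X calls of limma ran from 8 to 20.

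With the replicate block the ratio of X regions was 0.640 and the share difference 1.01 points (exact sign-flip permutation p = 0.5), and limma called 2 of 1022 regions, 0 of them X promoter regions. Over the 1022 regions, deviations of same-numbered libraries did not correlate (r = 0.00101). The labels do not say what these libraries share, and the correlation cannot settle it. Recovered depth, at a median of 14 to 23 reads per X summit, limits what low regions show.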
